A study of Mus musculus with 6 samples.

Results

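The ligand Shh and 8 further genes of the Hedgehog pathway, namely Ptch1, Gli1, Gli2, Gli3, Smo, Hhip, Sufu and Boc, were followed across 4 culture media of mouse dental epithelial organoids (DEOs). The members were chosen by gene name, and all 9 were found among the 47360 gene symbols of the expression table. DEOs were grown for 14 days in Matrigel from adult dental epithelial stem cells (aDESCs) of the apical buds of incisors of 9-week-old female wild-type C57BL/6J mice, at 5000 cells per well. Every medium held Wnt3a-conditioned medium, R-spondin1-conditioned medium, EGF at 100 µg per ml, N-acetylcysteine, the kinase inhibitor Y27632 and Noggin at 200 µg per ml, a blocker of BMP signaling. The medium with nothing further is called +N. DBZ (dibenzazepine), an inhibitor of the protease step in Notch activation, was present at 10 µM in +ND. FGF10 was added at 100 µg per ml in +NF, and +NFD held both FGF10 and DBZ. No Hedgehog ligand or agonist is named for any of the 4 media. The +NJ and +NFJ media of the study were not analysed here.

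Hedgehog ligands are secreted, lipid-modified proteins that bind Patched receptors. Unbound Patched keeps the membrane protein Smo inactive, and ligand binding frees Smo, which acts through the primary cilium to turn Gli proteins into activators of transcription. Gli1, Ptch1 and Hhip are well-known targets of the pathway, so their RNA is widely used as a readout of it. In the growing incisor, Shh is made by the dental epithelium, where it is known for its part in the progress from progenitors to ameloblasts, the enamel-forming cells.

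The values are the authors' FPKM, the number of fragments scaled to transcript length and library size, so levels can be compared between genes. Each medium had 1 library of whole organoids, so no difference between media has a replicate check, and none was tested. Relative depth was read from the step that 1 fragment makes in the FPKM of genes with a single annotated transcript. By this measure +ND had 0.743 times, +NF 0.982 times and +NFD 0.967 times the depth of +N, and 19606 to 20450 genes were above 0 in a library. Fragment numbers given here are FPKM multiplied by the longest transcript and divided by that step. They are approximate for genes with several transcripts, and the 95% intervals are exact Poisson intervals that cover counting error only. A value of up to 3 fragments is treated as the detection floor. In bulk samples, fewer cells of a type and less RNA per cell cannot be told apart. The epithelial markers Epcam, Cdh1, Krt5, Krt14 and Trp63 were above 0 in every library, with Krt5 between 4984 and 6582 FPKM. These 5 markers, which bear on the epithelial but not on the dental part of the label, summed to 10802 FPKM in +ND and to 12564 to 19608 in the others. Most of each sum was Krt5 and Krt14. Trp63 went the other way, highest in +ND at 166 FPKM and lowest in +N at 88.6.

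Shh was above the detection floor in the media with FGF10 and not in the others. The gene lies on the minus strand at chr5:28456815-28467256 (GRCm38, ENSMUSG00000002633) and has a single annotated transcript of 2847 nt. Its coding sequence starts with a signal peptide, after which the mature signaling protein begins with a cysteine that carries a fatty acid. The first 90 coding bases from the GRCm38 reference are shown because they encode both, and because they lie in the stretch that is shared with an antisense gene described further on. Capitals mark the codons of the first residues of the mature protein.
Shh: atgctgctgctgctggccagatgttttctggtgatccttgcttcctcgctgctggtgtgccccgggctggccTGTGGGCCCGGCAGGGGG

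Shh was at 0.0160 FPKM (+N), 0 (+ND), 0.679 (+NF) and 8.74 (+NFD), which corresponds to 1, 0, 55 and 694 fragments. The values of +N and +ND lie under the 3-fragment floor of 0.0365 and 0.0492 FPKM, so their order cannot be read. The counting interval was 0.514 to 0.888 FPKM in +NF and 8.10 to 9.41 FPKM in +NFD, and these do not overlap. Shh was 12.9-fold higher in +NFD than in +NF, with a counting interval of 9.73 to 17.2. Against the single fragment of +N, the ratio was 42.5 in +NF (interval 9.65 to 2253) and 547 in +NFD (interval 128 to 28401). Against the floor of +ND, Shh in +NFD was at least 178-fold higher. In +NFD the Shh level was above that of 60.9% of the genes with a value above 0, and in +NF above that of 33.9%.

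The other ligand genes remained under 0.4 FPKM, Dhh on 35 fragments or fewer and Ihh at the floor. Dhh, the Hedgehog ligand best known from testis and peripheral nerve, was at 0 (+N), 0.382 FPKM (+ND), 0.137 (+NF) and 0.201 (+NFD). Ihh, the ligand best known from cartilage and gut, was at 0.0303, 0.0211, 0.0318 and 0 FPKM across +N, +ND, +NF and +NFD, at most 2 fragments in any library. The highest ligand level of the 4 media was thus that of Shh in +NFD.

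**Figure D1:**
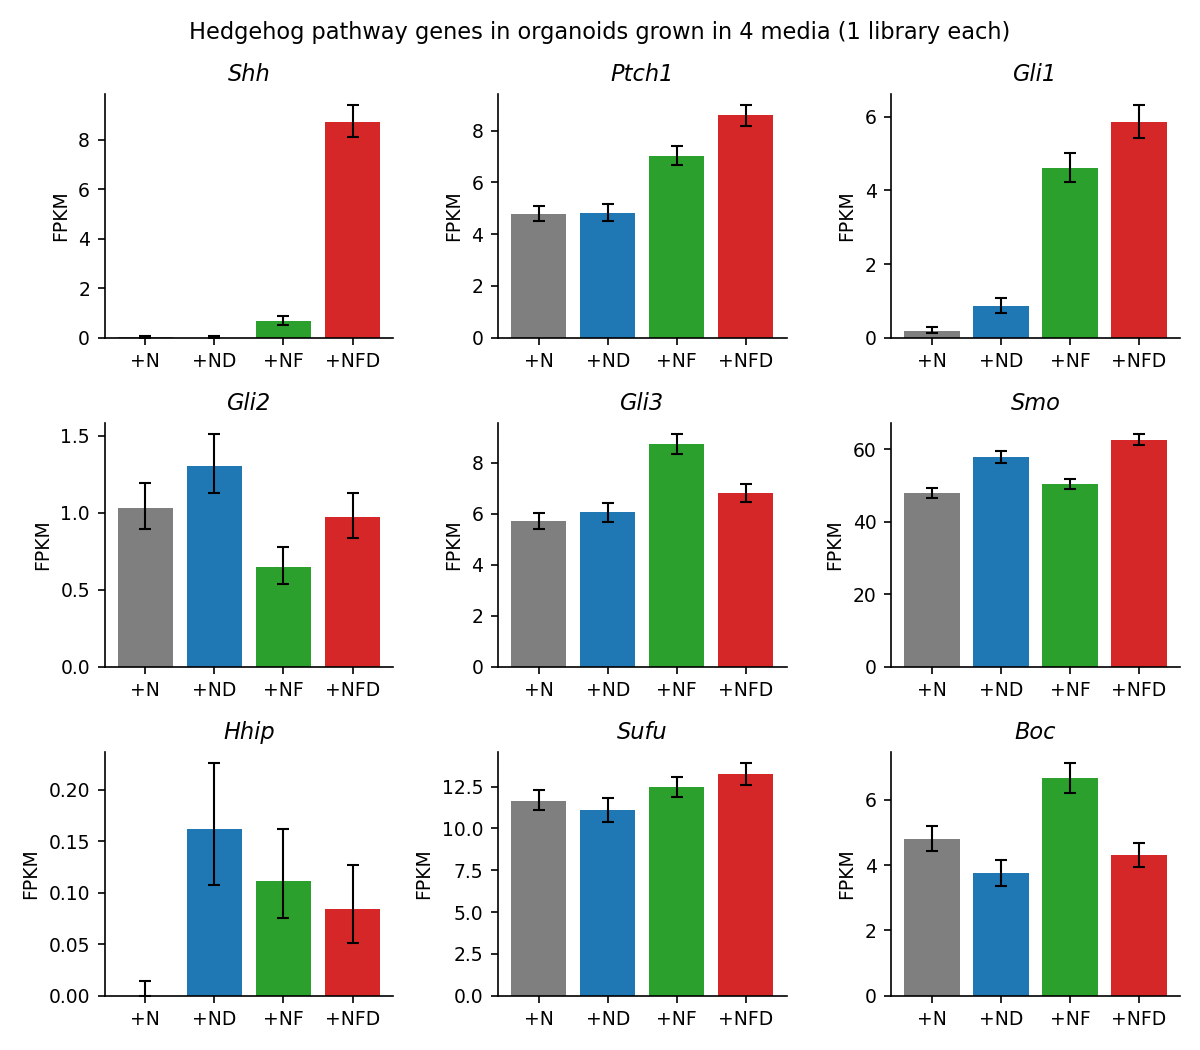
FPKM (vertical axis, from 0, a scale of its own for each gene) of the 9 Hedgehog pathway genes in the +N, +ND, +NF and +NFD libraries (bars), with 95% Poisson intervals of counting error as error bars. Shh stands at 8.74 FPKM in +NFD and at or under 0.679 in the other media, Gli1 at 4.61 and 5.86 in the media with FGF10 and under 1 in the others, and Smo and Sufu keep a like level in all 4.

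Gli1, the Gli family member that acts mainly as an activator and is itself induced by the pathway, was low without FGF10 and high with it. It was at 0.188 FPKM (+N), 0.865 (+ND), 4.61 (+NF) and 5.86 (+NFD), or 22, 75, 530 and 663 fragments. Both media with FGF10 stood above both without it, and the 4 counting intervals did not overlap. Gli1 was 24.5-fold higher in +NF than in +N (counting interval 16.0 to 39.5) and 31.2-fold higher in +NFD than in +N (20.4 to 50.1). In +NFD it was 6.77-fold higher than in +ND (5.34 to 8.75).

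The order of Gli1 over the media matched that of Shh where Shh could be read, but the steps differed in size. Between +NF and +NFD, where Shh was 12.9-fold higher, Gli1 was 1.27-fold higher (counting interval 1.13 to 1.43). Between +N and +ND, where Shh was at 1 and 0 fragments, Gli1 was 4.60-fold higher in +ND (2.82 to 7.75). Dhh was at 0 and 35 fragments in +N and +ND, and its part in this was not tested. In +NF the Gli1 level exceeded the Shh level, 4.61 against 0.679 FPKM, while in +NFD it was the lower of the pair, 5.86 against 8.74 FPKM. Gli1 lies at chr10:127329889-127341589 (ENSMUSG00000025407). Its exons overlap those of Arhgap9 on the opposite strand by 62 nt, and Arhgap9 was between 0.329 and 0.620 FPKM, lowest in +NF. They overlap the antisense gene Gm47200 by 265 nt, which was not analysed here.

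Ptch1, the main receptor and a target that is induced as a brake on the pathway, was present in every medium and differed less. It was at 4.78 FPKM (+N), 4.83 (+ND), 7.04 (+NF) and 8.59 (+NFD), each on 799 fragments or more. The first pair of values could not be told apart (ratio 1.01, counting interval 0.920 to 1.11), and the latter pair were higher. Ptch1 was 1.47-fold higher in +NF than in +N (1.36 to 1.59), 1.80-fold higher in +NFD than in +N (1.67 to 1.94) and 1.22-fold higher in +NFD than in +NF (1.14 to 1.31). It lies at chr13:63508328-63573598 (ENSMUSG00000021466). No ratio of Ptch1 reached 2-fold.

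Hhip, a membrane protein that binds Hedgehog ligands and limits their reach, is induced by the pathway in many tissues, and here it remained far under 1 FPKM. It was at 0 (+N), 0.162 FPKM (+ND), 0.111 (+NF) and 0.0839 (+NFD), or 0, 31, 29 and 21 fragments. Against the floor of +N it was at least 14.1-fold higher in +ND, at least 9.69-fold higher in +NF and at least 7.32-fold higher in +NFD. Its highest value was in +ND, but the counting intervals of +ND (0.108 to 0.226 FPKM) and +NF (0.0756 to 0.162 FPKM) overlapped. No Shh was detectable in +ND, which had the highest Dhh value, 0.382 FPKM, and the part of Dhh in this was not tested. The ratio of Hhip in +NFD to +ND was 0.519 (counting interval 0.284 to 0.935). The ratio of Hhip in +NFD to +NF was 0.755 with a counting interval of 0.399 to 1.33. Hhip thus did not share the order of Shh, Gli1 and Ptch1. It lies at chr8:79966115-80058006 (ENSMUSG00000064325).

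**Figure D2:**
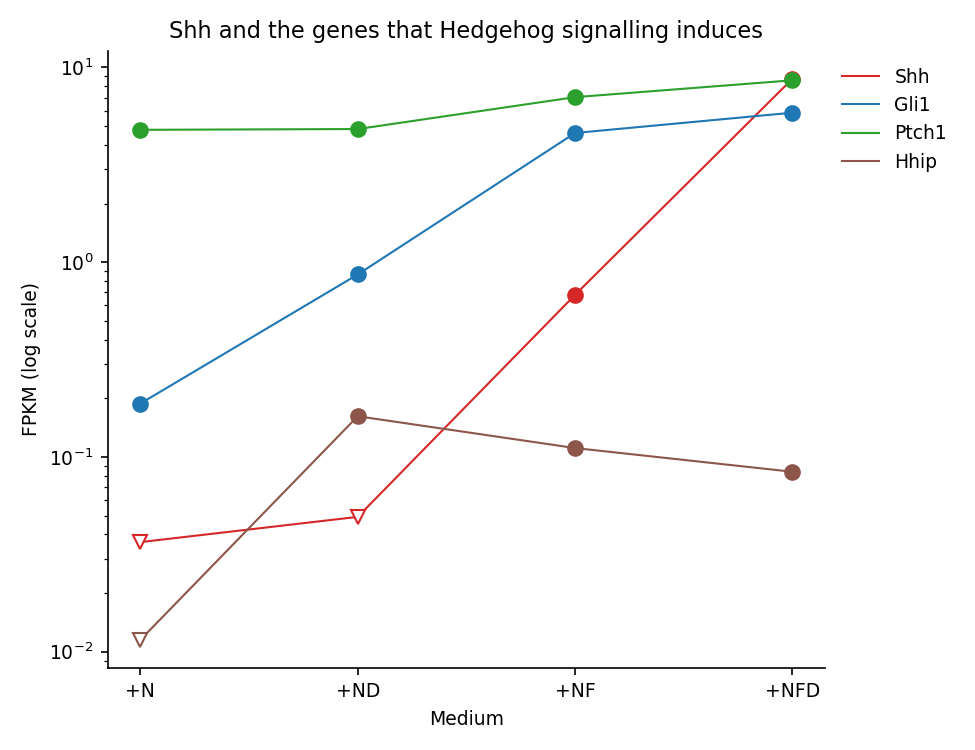
FPKM on a log axis (vertical) of Shh and of the pathway targets Gli1, Ptch1 and Hhip in the 4 media (horizontal, 1 library each). Open triangles are drawn at the 3-fragment floor where a gene was at or under it, and the step of Shh from 0.679 FPKM in +NF to 8.74 in +NFD is steeper than that of any of the 3 targets.

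Boc, a co-receptor that binds ligand together with Patched, was highest in +NF. It was at 4.80 FPKM (+N), 3.74 (+ND), 6.65 (+NF) and 4.30 (+NFD). The media with DBZ were lower than those without it: the ratio of +ND to +N was 0.780 (counting interval 0.683 to 0.890) and that of +NFD to +NF was 0.646 (0.579 to 0.721). Its ratio of +NFD to +N was 0.896 with an interval of 0.797 to 1.01. Boc lies at chr16:44485045-44558897 (ENSMUSG00000022687).

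Smo, the transducer that Patched holds inactive, was the most abundant of the 9 genes. It was at 47.8 FPKM (+N), 57.9 (+ND), 50.4 (+NF) and 62.7 (+NFD), above 89.9% to 92.3% of the genes with a value above 0. Its highest value was 1.31 times its lowest, with the media that held DBZ above those that did not. Sufu, which holds Gli proteins in the cytoplasm and so represses the pathway, was at 11.7, 11.1, 12.5 and 13.3 FPKM in +N, +ND, +NF and +NFD. Its range of 1.20 times was the narrowest of the 9. RNA of both was thus present in every medium, those without detectable Shh included. Smo lies at chr6:29735503-29761365 (ENSMUSG00000001761) and Sufu at chr19:46396896-46488804 (ENSMUSG00000025231).

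Gli2 and Gli3 are the Gli proteins that first receive the signal, Gli2 mainly as an activator and Gli3 mainly as a repressor in the absence of ligand. Gli2 was at 1.03 FPKM (+N), 1.31 (+ND), 0.649 (+NF) and 0.974 (+NFD), with +NF lowest. Its ratio of +NF to +N was 0.630 (counting interval 0.497 to 0.791), the opposite direction to Gli1. Gli3 was at 5.71 FPKM (+N), 6.05 (+ND), 8.73 (+NF) and 6.80 (+NFD), with +NF highest. Its ratio of +NF to +N was 1.53 (1.43 to 1.64) and that of +NFD to +NF was 0.779 (0.729 to 0.833). Gli3 exceeded Gli2 in each library. In +N and +ND Gli1 was the lowest of the 3 Gli genes, and in +NF and +NFD it stood between Gli2 and Gli3. Gli2 lies at chr1:118834132-119053619 (ENSMUSG00000048402). The opposite-strand transcript Gm6556 shares 188 nt with Gli3 and was between 0.300 and 0.703 FPKM, and Gli3 lies at chr13:15463235-15730026 (ENSMUSG00000021318).

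Since the Gli genes are related, the sequence that they share bears on whether their fragments could be confused. No run of 50 nt was shared between the longest transcripts of any pair of Gli1, Gli2 and Gli3. The longest run common to Gli1 and Gli2 was 23 nt, against 14 nt for Gli1 and Gli3 and 25 nt for Gli2 and Gli3. The run of Gli1 and Gli2 lies in the part that encodes the DNA-binding zinc fingers, and it is shown in capitals with 15 bases on each side, at coding positions 886 to 938 of Gli1 and 1423 to 1475 of Gli2.
Gli1: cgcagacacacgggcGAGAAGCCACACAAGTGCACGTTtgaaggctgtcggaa
Gli2: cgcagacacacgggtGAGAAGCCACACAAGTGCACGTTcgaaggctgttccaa

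To set the members beside all genes, ratios were also taken as log2 of (FPKM + 1) over (FPKM + 1), for genes at 1 FPKM or more in the higher library of a comparison. This scale understates the change of low genes, and 2-fold means a log2 ratio of 1 or more on it. Hhip passed the level filter in no comparison, and Shh passed it only in those with +NFD, where it is high. Gli1 was under 1 FPKM in +N and +ND. Against those it passed only through the library with FGF10, where it is high. For +NF over +N, 7 of the 9 genes passed and 1, Gli1 at a log2 ratio of 2.24, was at least 2-fold higher, where 2.76% of all 13090 genes that passed were. None of the 7 was 2-fold lower, where 2.44% of all genes were. For +NFD over +N, 8 passed and 2 were at least 2-fold higher, Gli1 at 2.53 and Shh at 3.26, beside 5.85% of all 13358 genes, and 0 were lower beside 4.03%.

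For +NFD over +ND, 8 of the 9 passed and the same 2 were at least 2-fold higher, Gli1 at 1.88 and Shh at 3.28, beside 3.39% of all 13293 genes, and 0 were lower beside 3.11%. For +NFD over +NF, 7 passed. Shh at 2.54 was the 1 gene at least 2-fold higher, beside 3.72% of all 13349 genes, and 0 were lower beside 2.69%. For +ND over +N, 6 passed and 0 were 2-fold higher or lower, beside 5.88% higher and 5.29% lower of all 13173 genes. Gli1 did not pass the level filter there, as its higher value was 0.865 FPKM. The comparisons with +N share that library, and those with +NFD share that one. The median log2 ratio of the members that passed was 0.40 for +NF over +N, beside 0.12 for all genes, and 0.30 for +NFD over +N, beside 0.18. It was 0.20 for +NFD over +ND, beside 0.09, and 0.26 for +NFD over +NF, beside 0.05. For +ND over +N it was 0.04, under the 0.10 of all genes.

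A wider list of 39 Hedgehog pathway genes was examined by role, of which 2 were not analysed here. For +NF over +N, 2 of the 31 that passed were at least 2-fold higher (Scube3 and Ccnd2), 6.45% beside 2.76% of all genes, and 0 were lower, beside 2.44%. For +NFD over +N, 6 of 31 were higher (Ccnd2, Scube3, Mycn, Disp1, Foxf2 and Evc), 19.4% beside 5.85% of all genes, and 1, Sox9, was lower, 3.23% beside 4.03%. For +NFD over +ND, 3 of 31 were higher (Scube3, Disp1 and Gpc3), 9.68% beside 3.39%, and 0 were lower, beside 3.11%. For +NFD over +NF, 1 of 30 was higher (Foxf2) and 1 lower (Sox9), 3.33% each beside 3.72% and 2.69%. For +ND over +N, 1 of 32 was higher (Mycn) and 1 lower (Sox9), 3.12% each beside 5.88% and 5.29%. The median of the list was 0.27 for +NF over +N, beside 0.12 for all genes, and 0.23 for +NFD over +N, beside 0.18. For +ND over +N it was 0.11, beside 0.10.

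Among genes that prepare and release the ligand, Disp1, which exports it from the cell, was at 2.85 FPKM (+N), 2.86 (+ND), 6.38 (+NF) and 7.58 (+NFD). It was 2.24-fold higher in +NF than in +N (counting interval 1.99 to 2.52), and its 2 values without FGF10 were alike. Scube3, of a family of secreted proteins that help to release the ligand, was at 1.29, 0.868, 6.53 and 5.02 FPKM, and was highest in +NF rather than in +NFD. Hhat, the enzyme that adds the fatty acid to the cysteine shown in the Shh sequence, ranged from 2.03 to 2.76 FPKM.

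The further co-receptors differed in direction. Gas1 was at 28.6 FPKM (+N), 30.9 (+ND), 13.8 (+NF) and 16.9 (+NFD), lower in both media with FGF10. Its ratio of +NF to +N was 0.484 (counting interval 0.451 to 0.520). Cdon, related to Boc, was at 1.27, 1.47, 2.43 and 2.51 FPKM, higher in both. Gpc3, a cell surface proteoglycan that competes with Patched for ligand, was at 14.5, 12.8, 28.3 and 26.7 FPKM, and so differed in the same direction as Cdon. Gas1 and Cdon are genes that Hedgehog signaling is known to repress in other tissues, and here their values went opposite ways.

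Evc and Evc2 act next to Smo at the base of the cilium. Evc was at 5.22, 7.71, 9.37 and 11.6 FPKM in +N, +ND, +NF and +NFD, and Evc2 at 8.07, 13.3, 11.6 and 15.4 FPKM, with +NFD highest for both. None of the 6 genes of cilium assembly and none of the 6 that process Gli proteins was 2-fold different in any comparison. Of the other known targets, the cell cycle gene Ccnd2 was at 109 FPKM (+N), 158 (+ND), 283 (+NF) and 315 (+NFD), which is the order of Gli1 and Ptch1. Mycn, another growth gene, was at 1.21, 3.68, 2.91 and 4.11 FPKM, higher in +ND than in +NF. The transcription factor gene Foxf2 was at 1.36, 3.41, 0.668 and 4.11 FPKM, higher in the media with DBZ. Sox9, a progenitor transcription factor gene, was at 21.4, 1.45, 21.6 and 2.81 FPKM, lower in both media with DBZ. The 4 genes named here as other targets thus had different orders over the media.

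**Figure D3:**
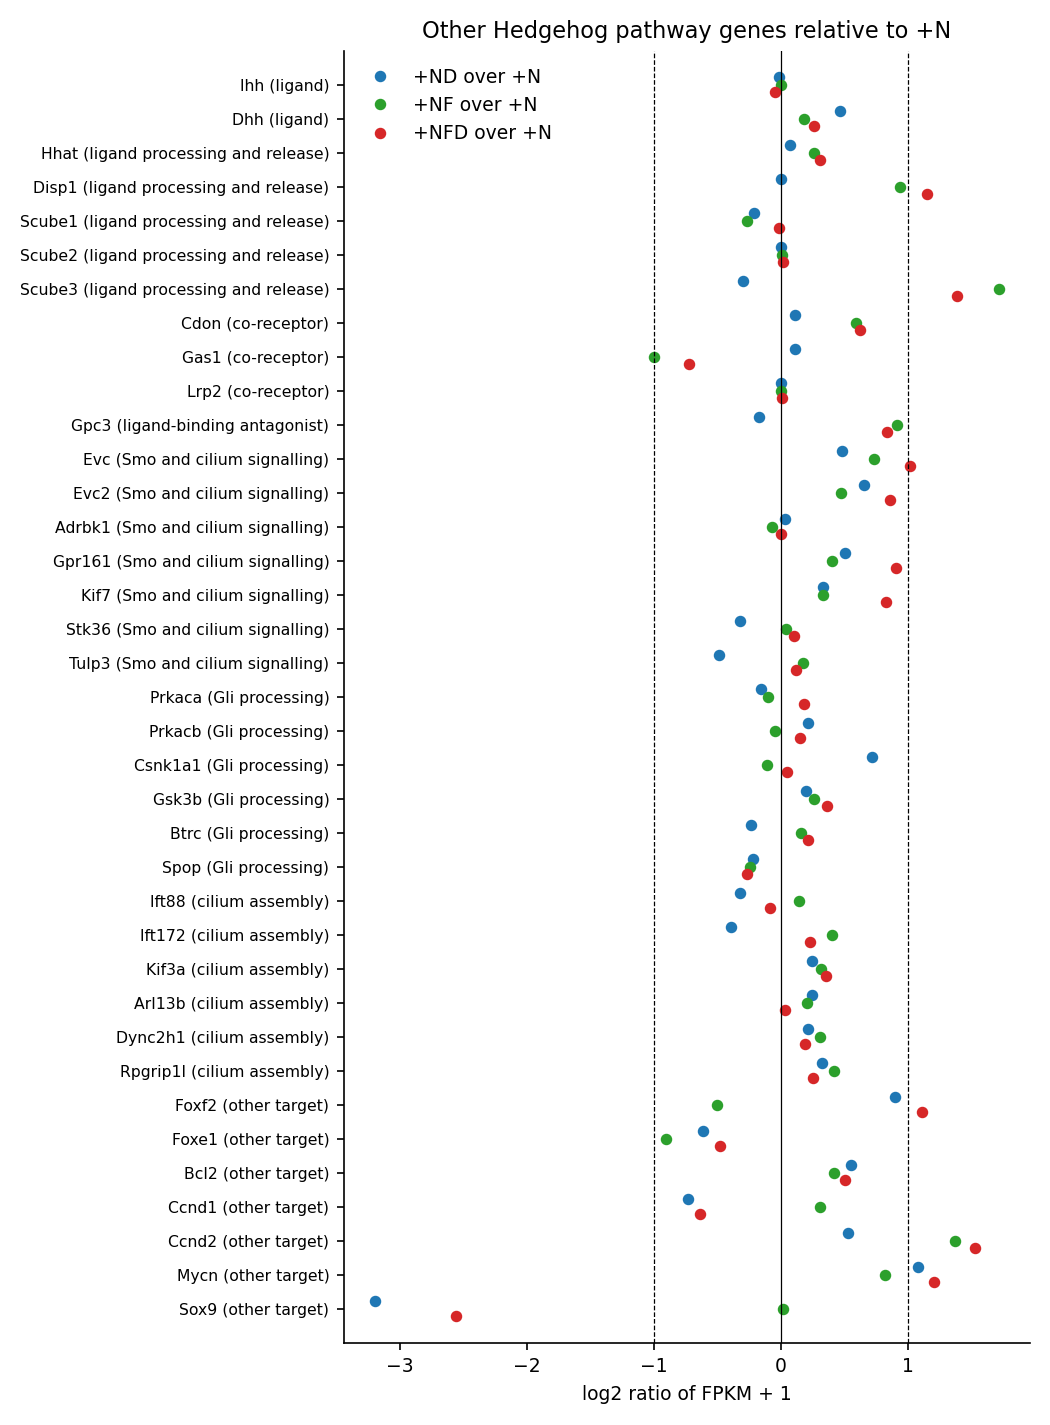
Log2 ratio of FPKM + 1 (horizontal) of the 37 other Hedgehog pathway genes (vertical, with their role) in +ND, +NF and +NFD over +N, 1 library each, with dashed lines at 2-fold. Scube3 lies at 1.72 in +NF, Ccnd2 at 1.53 in +NFD, Sox9 at -3.19 in +ND, and the cilium assembly and Gli processing genes lie between the dashed lines.

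Markers of other cell types were measured beside these values. The 10 fibroblast markers (Col1a1, Col1a2, Col3a1, Pdgfra, Pdgfrb, Dcn, Lum, Twist1, Prrx1 and Thy1) summed to 155.7 FPKM (+N), 138.1 (+ND), 98.12 (+NF) and 396.2 (+NFD), and none was at 0. All 10 were highest in +NFD, the library in which Shh, Gli1 and Ptch1 were highest, and 9 of the 10 were at least 2-fold higher there than in +N, as ratios of FPKM. On the same scale, 2 (Pdgfra and Thy1) were at least 2-fold higher and 2 (Col3a1 and Lum) at least 2-fold lower in +NF than in +N, where Gli1 was 24.5-fold higher. In +ND, where Gli1 was 4.60-fold higher than in +N, 4 (Pdgfra, Pdgfrb, Prrx1 and Thy1) were at least 2-fold higher. For these unfiltered ratios of FPKM the share of all genes is not given here. Thy1 rested on 4 fragments in +N. On the filtered FPKM + 1 scale, 9 of 10 were 2-fold higher in +NFD than in +N, beside 5.85% of all genes. For +NF over +N, 0 of 9 were higher and 2 lower, beside 2.76% and 2.44%. For +ND over +N, 1 of 9 (Prrx1) was higher and 0 lower, beside 5.88% and 5.29%. In each medium, the part of fibroblasts in the values of the Hedgehog genes was not tested. The 5 macrophage markers summed to 564.7, 458.6, 399.8 and 334.9 FPKM, of which most was Lyz2, and without Lyz2 the other 4 summed to 36.5, 50.9, 27.0 and 46.8 FPKM. The 3 endothelial markers summed to 0.308 FPKM or less, and the 3 Schwann cell markers to 0.861 or less, with Sox10 at 0 in all 4.

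The enamel matrix genes Amelx, Ambn and Enam were high, as Shh was, in +NFD alone. Amelx, the main enamel matrix gene, was at 0.269 FPKM (+N), 0.272 (+ND), 0.120 (+NF) and 323 (+NFD). Ambn was at 0.340, 0.139, 0.117 and 26.4 FPKM, and Enam at 1.97 FPKM in +NFD and 0 elsewhere. In +NF, where Shh was at 0.679 FPKM and Gli1 at 4.61, these 3 genes were no higher than in +N. Of the 7 ameloblast genes listed, Amtn and Odam were at least 2-fold lower in +NFD than in +N. Odam was at 6221 FPKM (+N), 2824 (+ND), 5441 (+NF) and 2602 (+NFD), above Amelx in every library. Amtn was at 7.01, 1.65, 1.25 and 1.13 FPKM in the same media. Mmp20 was at 0.194 FPKM in +NFD and 0 elsewhere, and Klk4 at 0.0346 FPKM in +ND and 0 elsewhere. Of 14 genes of the signaling centers of the embryonic tooth, where Shh is expressed, 11 passed for +NFD over +N. Of these, 4 were at least 2-fold higher (Wnt6, Bmp4, Msx2 and Fgf9), 36.4% beside 5.85% of all genes. Fgf9 passed the level filter only through +NFD, where it is high. For +ND over +N, 2 of 10 were higher (Bmp4 and Msx2), 20% beside 5.88%. For +NF over +N, 1 of 10 was higher (Bmp4), 10% beside 2.76%. Bmp4 was at 5.04 FPKM (+N), 11.3 (+ND), 13.3 (+NF) and 15.9 (+NFD), and Msx2 at 10.3, 30.0, 16.1 and 38.4. Fgf9, a growth factor gene of those centers, was at 0, 0.190, 0 and 2.56 FPKM, and Fgf4 was at 0 in all 4.

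**Figure D4:**
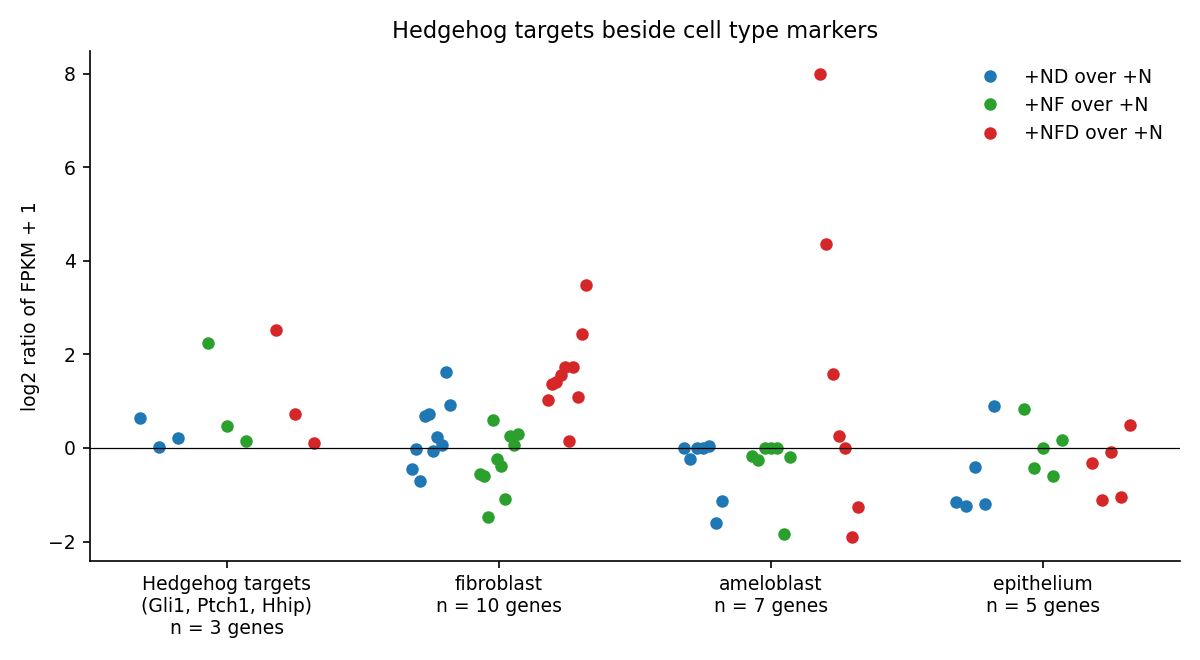
Log2 ratio of FPKM + 1 over +N (vertical) of 3 Hedgehog targets and of fibroblast, ameloblast and epithelial markers (1 point per gene, 1 library per medium) in +ND, +NF and +NFD. In +NF Gli1 stands at 2.24 while no fibroblast or ameloblast marker reaches 1, and Col3a1, Lum and Amtn lie under -1. Of all genes that passed the level filter there, 2.76% were 2-fold higher and 2.44% lower. In +NFD 9 of 10 fibroblast markers and 3 of 7 ameloblast markers exceed 1, beside 5.85% of all genes that passed. Amtn, Odam, Cdh1 and Krt14 lie under -1 in +NFD, beside 4.03% of all genes that passed.

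The surroundings of Shh were examined to see whether other genes of the region shared its values. Of 10 protein-coding genes that start within 1 Mb of the start of Shh, 4 were at 0 in all 4 libraries and 6 reached 1 FPKM. Rbm33, the nearest of the 6 at 150.1 kb, was at 6.86 FPKM (+N), 9.30 (+ND), 8.86 (+NF) and 9.15 (+NFD). Lmbr1, an intron of which is known to hold a distant limb enhancer of Shh, was at 8.16, 7.72, 8.86 and 8.48 FPKM, a range of 1.15 times. Of the 10, Insig1, a regulator of sterol synthesis, was the 1 gene with a 2-fold ratio of FPKM + 1 in a comparison, at 17.6, 39.2, 25.9 and 50.9 FPKM, and its media with DBZ were the highest. Rnf32 had the order of Gli1 over a narrower range, at 1.45, 2.31, 2.69 and 3.44 FPKM, its highest value 2.37 times its lowest.

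Gm26894, a long noncoding RNA gene on the plus strand, did share that pattern. It lies at chr5:28466374-28480973, starts 0.9 kb from the start of Shh and overlaps its first coding exon. It was at 0 in +N and +ND, 0.146 FPKM in +NF and 5.25 in +NFD, which corresponds to 5 and 166 fragments in the media with FGF10. Its exons share 361 nt with those of Shh (chr5:28466461-28466821) out of its own 1134 nt, and the shared stretch holds the coding bases of Shh printed above. The strand setting of the authors' counting is not stated, so fragments of this stretch cannot be told apart between the genes. The antisense gene 9530036O11Rik, which shares 446 nt with Shh, was at 0 in +N, +ND and +NF and at 0.118 FPKM in +NFD.

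**Figure D5:**
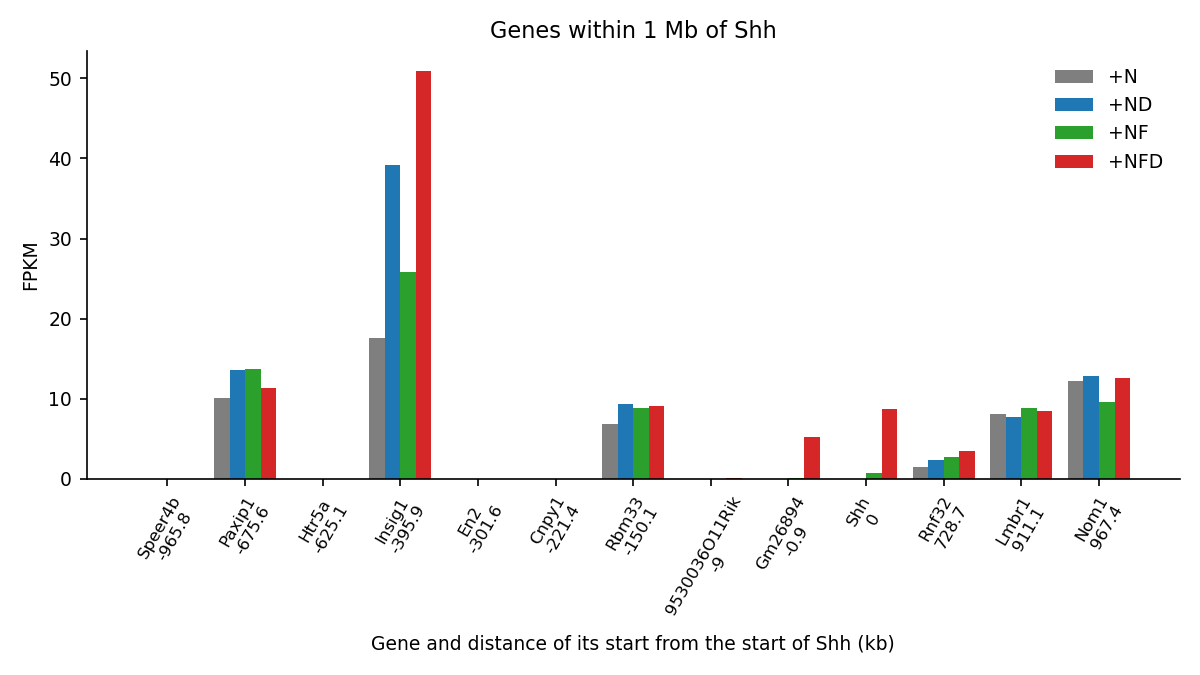
FPKM (vertical, from 0) in the 4 libraries of Shh, its overlapping noncoding genes and the 10 protein-coding genes that start within 1 Mb, ordered by the distance of their start from that of Shh in kb (horizontal labels, minus for lower coordinates). Shh and Gm26894 are under 1 FPKM in the other media and at 8.74 and 5.25 FPKM in +NFD. Rbm33 and Lmbr1 are at 9.30 FPKM or below in all 4 media. The tallest bars are those of Insig1, which is also highest in +NFD, at 50.9 FPKM, as is Rnf32 at 3.44.

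Genes with profiles most like that of Shh were sought among 21402 protein-coding genes, by the Euclidean distance between log2(FPKM + 1) profiles centered on their mean over the 4 libraries. The 5 nearest were Tmem213 (distance 0.163), Ascl5 (0.368), Igfbpl1 (0.538), Vwde (0.691) and Tesc (0.851). Tmem213 was at 0 in +N and +ND, 0.741 FPKM in +NF and 7.67 in +NFD. Among pathway genes Gli1 ranked 77 and Ptch1 585 by likeness to Shh. The 5 nearest to Gli1 were Cyfip2 (0.373), Plagl1 (0.405), Spry1 (0.455), Dlk1 (0.460) and Fads1 (0.486), and Cyfip2 was at 0.354, 1.52, 5.33 and 5.43 FPKM in +N, +ND, +NF and +NFD. Scube3 ranked 39, Ptch1 577 and Shh 1059 by likeness to Gli1. The likeness rests on 4 libraries and describes these only.

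The promoter windows of RefSeq (GRCm38.p6), from 250 bases before to 50 after the start of a gene, were searched on both strands for the Gli binding motif. Of the 9 genes, 6 (Ptch1, Gli2, Gli3, Smo, Hhip and Sufu) matched a window. The motif GACCACCCA was in 0 of these 6 windows, beside 0.253% of all 32851 windows, and GACCNCCCA, which includes it, was in 0 of 6 beside 0.977%. Among the wider list, both were in 0 of 35 windows. This says only that these letters were not in these windows.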

How the data were processed

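RNA was measured in DEOs grown in 6 media, with 1 library per medium, of which 4 were analysed here. The authors prepared TruSeq libraries from total RNA, sequenced them on an Illumina HiSeq sequencer, and deposited FPKM values estimated with Cufflinks after alignment to GRCm38. FastQC 0.11.9, Trim Galore 0.6.5 and TopHat2 2.1.1 are named in the submitters' processing notes. The strand setting and annotation release are not given in the sources used here. FPKM divides by length and library size, so a few abundant transcripts can lower all other values of a library. The authors' calls of differential expression were not used here.

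The members and gene lists were chosen with earlier results of these data known, and 2 genes of the lists are not reported here. From the deposited FPKM, entries with the same symbol were summed (123 symbols had several). Log2 ratios used a pseudocount of 1 and genes at 1 FPKM or more in the higher library, in 5 comparisons, and no test was made. Fragment numbers rest on the step of 1 fragment, found from 5648 genes with a single transcript of 1500 nt or more, and the intervals of ratios are exact conditional Poisson intervals at 95%. Positions, transcript lengths and sequences come from GENCODE M21 (GRCm38), and promoters from RefSeq. The genes named are the 9 members, genes of the lists that were 2-fold different or define a role, protein-coding genes within 1 Mb of Shh, and the 5 nearest profiles to Shh and to Gli1. Genes that share exon bases with Shh, Gli1 and Gli3 are named in the text on these members. Gm27820, which shares 175 nt with Hhip, was at 0 in all 4 libraries. Genes within a member that share no exon bases with it are not named. The tried alternatives were a pseudocount of 0.1 or none, no filter or a filter at 5 FPKM, upper-quartile scaling, ratios centered on their median, and the highest entry of a symbol. The computations were tested on simulated data. Scripts ran in Python 3.11.15 (scipy 1.17.1 for intervals, pandas 2.3.3 and numpy 2.4.6 for tables, matplotlib 3.10.9 for plots).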

Additional observations from a re-analysis of the deposited data

Results flagged for a closer look

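The lists examined held the 9 members, 37 wider pathway genes and 14 genes of the tooth signaling centers. In 10 of these genes, Hhip among them, an added factor had effects of opposite sign in the absence and presence of the other factor. Each sign was beyond its counting interval. The share of all genes with such signs is not given here, so 10 cannot be called many or few. In 2 of the 10 the larger effect was at least 1.5-fold on the log2(FPKM + 1) scale, and they are given here. Each of the differences was seen between single libraries and was not tested. Foxe1, a transcription factor gene and known Hedgehog target, was lower with DBZ in the absence of FGF10 (log2 ratio of +ND to +N of -0.61) and higher with DBZ in its presence (+NFD to +NF, 0.43), from 1.68 FPKM (+N), 0.750 (+ND), 0.429 (+NF) and 0.920 (+NFD). Wnt10b, a Wnt ligand gene of the tooth signaling centers, had a log2 ratio of -0.24 for +ND to +N and of 0.70 for +NFD to +NF. For FGF10, its log2 ratio was -0.65 without DBZ (+NF to +N) and 0.28 with it (+NFD to +ND), from 5.33, 4.37, 3.04 and 5.55 FPKM in +N, +ND, +NF and +NFD.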

How the results depend on the processing

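Of 140 counts of genes past 2-fold under the 7 alternatives, 124 kept within 1.5 times the reported count and 16 did not, and of 1273 single-gene values 176 moved beyond their counting interval. The sign changed in 29, all with a reported log2 ratio of 0.17 or less in size, and in 0 of those at 2-fold or more. For the members, a filter at 5 FPKM left 0 genes higher in +NF than in +N in place of 1, since Gli1 did not reach 5 FPKM there, and without a pseudocount 1 gene in place of 2 was higher in +NFD than in +ND, since Shh was at 0 in +ND. For the wider pathway in +ND over +N, the count higher was 3 with a pseudocount of 0.1 and 3 with none, 0 with the filter at 5 FPKM and 0 with centered ratios, in place of 1, and the count lower was 2 with a pseudocount of 0.1 and 2 with none, in place of 1. In +NF over +N, the count higher was 4 with either smaller pseudocount in place of 2, and the count lower was 2 with a pseudocount of 0.1, 3 with none, 1 with upper-quartile scaling and 2 with centered ratios, in place of 0. In +NFD over +N, the count higher was 3 with centered ratios in place of 6. In +NFD over +NF, the count higher was 0 with the filter at 5 FPKM, in place of 1. The causes of the changes in the wider pathway were not tested. The median log2 ratio of all genes for +NFD over +N was 0.18 as deposited and 0.08 after upper-quartile scaling. Depth limits Shh in +N and +ND, Hhip in +N and Ihh in all 4 media.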
